A study of Mus musculus with 2 samples.

Results

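T cells without a detected Cd8 transcript were examined in the stromal vascular fraction (the non-adipocyte cells that collagenase releases) of the epididymal white fat of mice, a visceral fat pad. They were 194 of 14205 deposited cell barcodes: 109 of 7365 in the library from mice on normal chow diet (NCD) and 85 of 6840 in the library from mice on high fat diet (HFD). A barcode was a member if it had at least 500 genes, at most 20% mitochondrial UMIs (unique molecular identifiers, each counting 1 captured transcript) and at least 2 UMIs of Cd3d, Cd3e and Cd3g together. It also had 0 UMIs of Cd8a and Cd8b1, under 0.5% of its UMIs from the C1q genes, under 5 UMIs of Lyz1 and Retnla, at most 1 UMI of Cd79a and Cd79b, and under 1.5% of its UMIs from the stromal genes Dcn, Col1a2, Col3a1 and Lum. The cells were chosen by measured UMI counts of these genes, so the levels of those genes describe the choice and are no result.

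Both libraries came from wild-type male C57BL/6J mice aged 18 weeks, and the high fat diet had lasted 12 weeks. Each diet had 1 library, and how many mice went into it is not given in the sources used here. Diet and library therefore cannot be told apart, no test between the diets was possible, and every 95% interval covers counting error only. The NCD library held 33825653 UMIs and the HFD library 18623508. The members of the NCD library had a median of 2604 UMIs and 1108 genes, against 2002 UMIs and 855 genes in the HFD library. The members' pooled counts came to 348865 UMIs in NCD and 212606 in HFD, and all levels below are CPM (counts per 1000000 UMIs) of these sums. The libraries had 64 cell barcodes in common, and none was a member in both.

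T cells recognise antigen through a receptor that signals through the CD3 chains, and those without CD8 comprise CD4 helper and regulatory T cells, gamma-delta T cells and several innate-like kinds. In fat, gamma-delta T cells poised to make IL-17 and regulatory T cells carrying the IL-33 receptor are known residents of lean tissue, whereas naive T cells circulate through blood and lymphoid organs. The gene tables hold no constant genes of the T cell receptor, so gamma-delta and alpha-beta T cells could not be separated by receptor and are described by the other genes they are known for.

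T cell genes that the rule did not use were present in both libraries. Lat, an adaptor of receptor signalling, was at 439 CPM in NCD and 376 in HFD, and Lck, the kinase that starts this signalling, at 229 and 226. Thy1, a surface protein of T cells, and Zap70, the kinase that binds the receptor chains, had lower levels in HFD, at 685 and 249.3 CPM and at 129 and 51.7 CPM. Of 22 receptor and signalling genes in the tables, 22 were seen in the NCD members and 21 in the HFD members, and 109 of 109 and 79 of 85 members had at least 1 of them. Of the 4 genes that mark the population by its working name, only the CD3 genes were frequent. Cd3g was found in 104 of 109 NCD and 67 of 85 HFD members, and Cd3e in 77 and 45. Lef1 was found in 7 and 24 members, and Cd4 in 7 and 6. The name of the population rests on CD3 and on the missing Cd8, and most members carried neither Cd4 nor Lef1 at this depth.

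Transcripts of other cell types were also present, and those of stromal cells, macrophages and mast cells were at higher levels in the HFD members. Of 20 stromal markers outside the rule, all 20 were seen in each library. They summed to 2683 CPM in the NCD members and 9167 CPM in the HFD members, with a median of 10.5% and 33.3% of their level in the whole library. For 15 macrophage markers the sums were 1089 and 3518 CPM, at 12.3% and 24.9% of the library level, and 13 and 14 of the genes were seen. Other myeloid markers summed to 1958 CPM in NCD and 1797 CPM in HFD, and natural killer markers to 1539 and 1533 CPM. A single NCD barcode held 187 of the 416 UMIs of Lyz2, the myeloid marker with the most UMIs. The 7 MHC class II genes summed to 10130 CPM in NCD and 12107 CPM in HFD. Of 11 B and plasma cell markers, 5 and 6 were seen, at 80.3 and 146 CPM in sum, and Ms4a1 had 0 and 2 UMIs. Of 8 mast cell or basophil markers, 3 UMIs in all were found in NCD and 191 in HFD. The part of these transcripts in the results was not tested, and shares of cells are given below beside those in stromal barcodes. These were 2417 NCD and 2516 HFD barcodes with at least 1.5% stromal UMIs, with median depths of 4876 and 1994.5 UMIs, and shares were also taken after thinning every barcode to 1400 UMIs. No member was left out by the thinning.

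Members made up 1.48% of the 7344 NCD barcodes that passed the gene and mitochondrial limits (95% Clopper-Pearson interval 1.22% to 1.79%) and 1.25% of 6786 HFD barcodes (1.00% to 1.55%). The HFD share was 0.844 times the NCD share, with an interval of 0.628 to 1.13. T cells that met the same rule but had a Cd8 UMI were 0.327% of NCD and 0.914% of HFD barcodes, 2.80 times the share (1.72 to 4.68). They were 18.0% of all T cells of the rule in NCD (24 of 133) and 42.2% in HFD (62 of 147).

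At the edges of the rule the libraries differed. In NCD, 7 members had exactly 2 CD3 UMIs, and 13 barcodes missed membership only by having 1. In HFD these numbers were 24 and 104. The members had a median of 6 CD3 UMIs in NCD and 4 in HFD. 10 NCD and 14 HFD T cells fell outside through a single Cd8 UMI. The highest stromal shares inside the limit were 1.26% in NCD and 1.36% in HFD, and the lowest outside were 1.53% and 1.52%. With 1 CD3 UMI as the minimum, 122 NCD and 189 HFD barcodes were members, and the share ratio became 1.68.

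Most NCD members carried exactly 1 of 4 transcript profiles. The profiles were drawn up after the values had been seen, so they are descriptions. A member was counted in a profile if it had at least 2 UMIs of that profile's genes. The type 17 profile used Cd163l1, Blk, Il17re, Kcnk1, Actn2, 5830411N06Rik, Il23r, Sox13 and Il17a, and the type 2 profile Gata3, Il1rl1, Il5, Il13, Klrg1 and Areg. The cytotoxic profile used Nkg7, Klrd1, Ccl5, Gzmk, Gzma and Cst7, and the naive profile Lef1, Ccr7 and Dapl1. In NCD, 91 of 109 members had exactly 1 of the 4 profiles, 6 had more than 1 and 12 had none. In HFD, 51 of 85 had exactly 1, 8 had more than 1 and 26 had none.

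The type 17 profile was found in 40 of 109 NCD members (36.7%, 27.7% to 46.5%) and in 7 of 85 HFD members (8.24%, 3.38% to 16.2%). The type 2 profile was found in 29 NCD members (26.6%, 18.6% to 35.9%) and 4 HFD members (4.71%, 1.30% to 11.6%). Of these, 24 NCD and 3 HFD members had only this profile, and they carried it through different genes. Gata3 was found in 19 of the 24 and Il1rl1 in 16. The 3 HFD members had 0 UMIs of both, 20 of Areg and 4 of Klrg1. The HFD share of the type 17 and type 2 profiles was 0.224 (0.0848 to 0.506) and 0.177 (0.0452 to 0.504) times the NCD share. These intervals cover counting error in 1 library per diet and do not allow for profiles drawn up after seeing the values. The naive profile lay the other way, with 4 NCD members (3.67%, 1.01% to 9.13%) and 23 HFD members (27.1%, 18.0% to 37.8%), a ratio of 7.37 (2.52 to 29.3). That ratio was 2.90 with 1 CD3 UMI as the minimum and 14.5 without members that had 20 or more class II or 2 or more mast cell UMIs. The cytotoxic profile was found in 31 NCD (28.4%) and 33 HFD members (38.8%), a ratio of 1.37 (0.810 to 2.30). Thinning lowered the type 17 shares to 23.9% and 7.06%, the type 2 shares to 18.3% and 3.53%, and the naive shares to 1.83% and 18.8%, and kept each order. Stromal barcodes had the type 17 and type 2 profiles in 0.331% of cases each in NCD, and the type 2 and naive profiles in 0.318% and 0.278% in HFD. The naive profile was in 0 of 2417 NCD stromal barcodes, which allows a share of up to 0.124%, and the type 17 profile in 0 of 2516 in HFD, which allows up to 0.119%. The cytotoxic profile was found in 0.372% of NCD and 5.84% of HFD stromal barcodes.

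**Figure D1:**
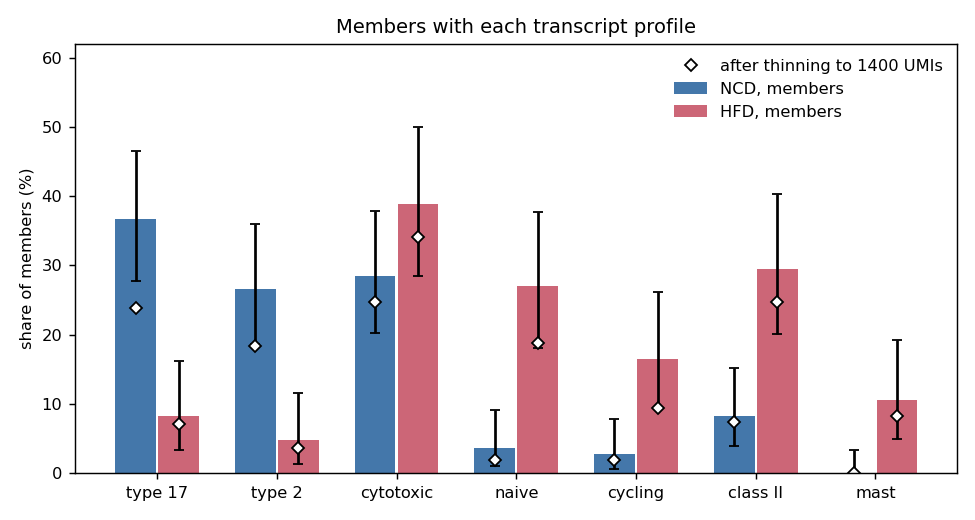
Bars give the share of members with each transcript profile (per cent, vertical axis) in the NCD and HFD libraries, lines the 95% Clopper-Pearson intervals, which cover counting error only, and diamonds the share after thinning each cell to 1400 UMIs. The type 17 and type 2 bars are high in NCD (36.7% and 26.6%) and the naive bar in HFD (27.1%), and the cycling, class II (at least 20 UMIs of MHC class II genes) and mast bars are also higher in HFD.

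Cd4, the co-receptor of helper and regulatory T cells (chr6:124864692-124888221, minus strand, GRCm38), was sparse in both libraries. It gave 11 UMIs in 7 of 109 NCD members (31.5 CPM) and 7 UMIs in 6 of 85 HFD members (32.9 CPM), a ratio of 1.04 with an interval of 0.343 to 2.95. After thinning, 3.67% of NCD members (1.01% to 9.13%) and 3.53% of HFD members (0.734% to 9.97%) kept a Cd4 UMI. Stromal barcodes had one in 0.0414% of cases in NCD and 0.199% in HFD before thinning. A member without a Cd4 UMI cannot be called CD4 negative at this depth. The same holds for Cd8: 10 NCD and 14 HFD T cells had a single Cd8 UMI, and a member with 0 may be a CD8 T cell. How many members, with the cytotoxic or naive profile or without, were such cells was not tested. In HFD, 5 of the 6 members with Cd4 also had Lef1, against 19 of the other 79. In NCD this was 1 of 7 against 6 of 102.

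The genes of the CD4 lineage list were not 2-fold apart between the libraries. Of 2399 genes at a mean of at least 50 CPM in the members, 161 (6.71%) were at least 2-fold higher in HFD and 163 (6.79%) at least 2-fold lower, and the median log2 ratio of HFD over NCD was -0.07. Of the 9 CD4 lineage genes, 4 reached that level, none was 2-fold apart, and their median log2 ratio was -0.11. They were Cd28, the co-stimulatory receptor (169 CPM in NCD, 202 in HFD), Icos, its inducible relative (212 and 165), Tnfrsf4, which encodes OX40 (201 and 216), and Izumo1r, which encodes folate receptor 4 (100.3 and 80.0).

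Genes of the naive and central memory list did not move as 1 group. Of the 13 list genes at level, 6 were at least 2-fold higher in HFD, 6 were within 2-fold, and Ramp1 was lower (642 and 169 CPM). Ramp1 was not particular to naive members. In NCD it was at 1157 CPM in members with only the type 17 profile and 144 CPM (2 UMIs) in those with only the naive profile. The list median of the log2 ratio was 0.27. Lef1, a transcription factor of naive and developing T cells (chr3:131110471-131224356, plus strand), was at 37.3 CPM in NCD (13 UMIs) and 202 CPM in HFD (43 UMIs), a ratio of 5.43 (2.86 to 11.002). Dapl1, a marker of naive T cells, was at 22.9 CPM in NCD (8 UMIs) and 202 CPM in HFD (43 UMIs), a ratio of 8.82 (4.10 to 21.7). Neither total rested on 1 barcode: Lef1 came from 24 HFD members and Dapl1 from 18, with at most 7 and 6 UMIs in 1 barcode.

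Ccr7, the receptor that guides T cells into lymph nodes, was at 63.1 CPM in NCD and 136 in HFD, a ratio of 2.16 (1.20 to 3.95). Its NCD value was mostly 1 barcode, which held 15 of the 22 UMIs, and 7 NCD and 21 HFD members had the gene. Satb1, a chromatin organiser of T cells, was at 48.7 and 127 CPM (log2 ratio 1.38), and S1pr1, which lets T cells leave lymphoid tissue, at 48.7 and 98.8 CPM. Igfbp4 was also higher in HFD, at 60.2 and 221 CPM, and is a gene that stromal cells express as well. Tcf7 (80.3 and 89.4 CPM) and Klf2 (631 and 706 CPM), both genes of naive and central memory T cells, were within the 2-fold limit. With 1 CD3 UMI as the minimum, the list median turned to -0.085, the Ccr7 log2 ratio was also -0.085, and Satb1 was at 0.52, within 2-fold. Satb1 was at 0.67 with the rule applied to thinned cells, and Ccr7 at 0.77 without members that had an Il1rl1, Ncr1 or Klra8 UMI.

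In stromal barcodes Lef1 was found in 0 of 2417 NCD cases, which allows up to 0.124%, and in 0.358% of HFD cases, and Dapl1 in 0.0414% and 0.715%. The shares of members were 6.42% and 28.2% for Lef1 and 4.59% and 21.2% for Dapl1. After thinning they were 6.42% and 20% for Lef1 and 1.83% and 16.5% for Dapl1. The order of the libraries was the same with and without thinning.

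**Figure D2:**
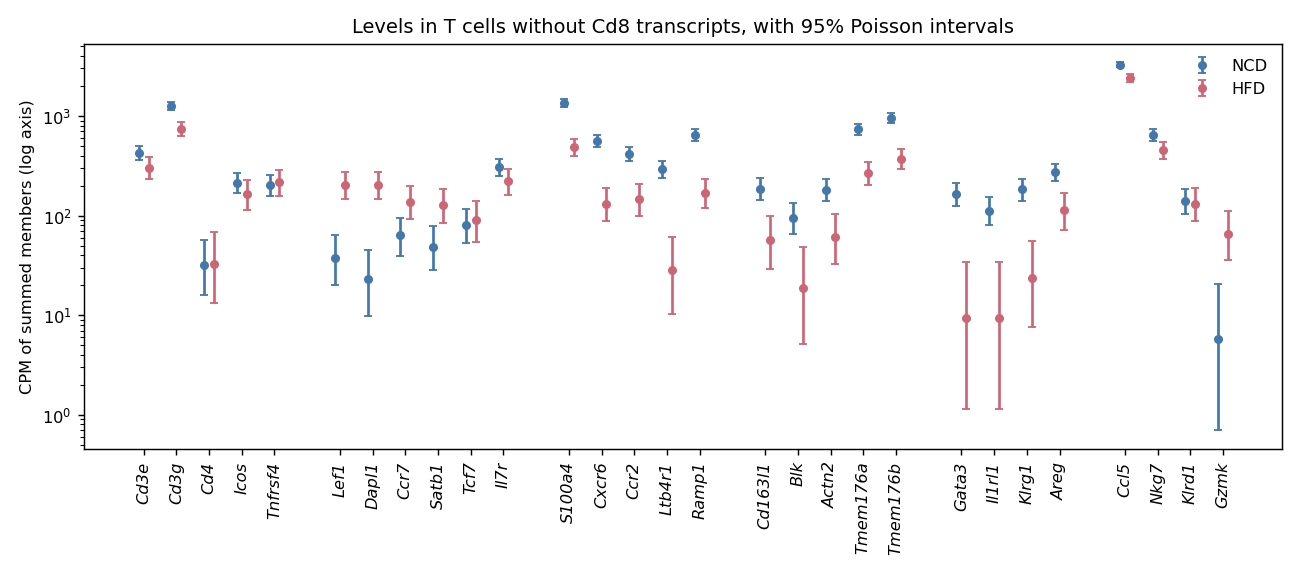
Points give the level of each gene in the pooled members (CPM, log axis) in NCD and HFD, with 95% Poisson intervals that cover counting error only. From left to right the gaps separate CD3 and CD4 lineage genes, naive genes, memory and tissue genes, type 17 genes, type 2 genes and cytotoxic genes. Lef1 and Dapl1 lie near 202 CPM in HFD and below 40 in NCD, and the memory, type 17 and type 2 points lie higher in NCD.

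Genes of memory, effector and tissue-resident T cells were lower in HFD or within 2-fold. None of 23 list genes at level was 2-fold higher in HFD, 6 were 2-fold lower, and the list median of the log2 ratio was -0.78. Ltb4r1, the leukotriene B4 receptor (chr14:55765962-55768494, plus strand), had the widest gap of the list, at 292 CPM in NCD (102 UMIs in 52 members) and 28.2 CPM in HFD (6 UMIs in 4 members). The NCD level was 10.4 times the HFD level (4.599 to 28.9). No NCD barcode held more than 6 of these UMIs. Cxcr6, a chemokine receptor of tissue T cells (chr9:123806475-123811760, plus strand), was at 559 and 132 CPM, 4.24 times higher in NCD (2.85 to 6.55), and was found in 61 NCD and 11 HFD members.

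Another 4 genes of the list were past the limit. S100a4, a calcium-binding protein of effector and memory cells, was at 1344 and 484 CPM, and Ccr2, a receptor that brings leukocytes to inflamed tissue, at 419 and 146 CPM. Id2, a transcriptional regulator of effector lymphocytes, was at 909 and 339 CPM, and Capg, an actin-capping protein, at 631 and 301 CPM. S100a6 (3832 and 2225 CPM), Cd44 (215 and 122 CPM) and Cd69 (149 and 127 CPM), which are usual signs of past activation or residency, were not 2-fold apart. S100a4 was found in 77.1% of NCD members and 37.6% of HFD members, against 12.0% and 22.2% of stromal barcodes. With the library profile subtracted in proportion to the stromal markers, the list median was -0.995.

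**Figure D3:**
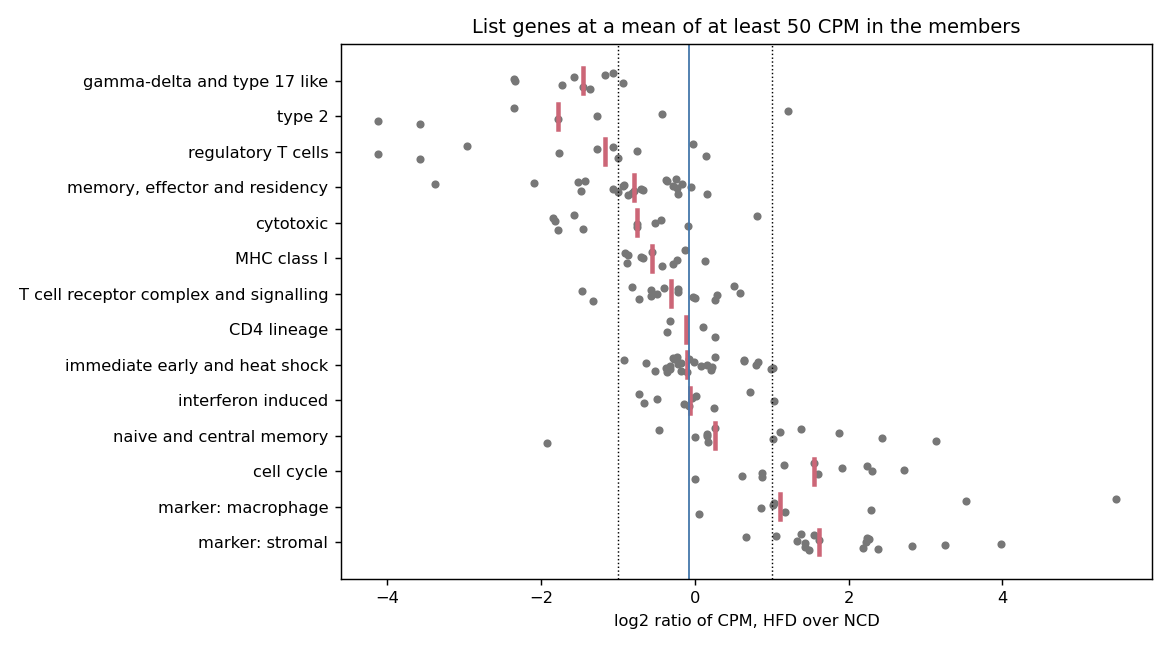
Each point is a list gene at a mean of at least 50 CPM in the members, placed by its log2 ratio of HFD over NCD. Red bars give list medians, the blue line the median of all 2399 genes (-0.07), and dotted lines the 2-fold limits. The type 17, type 2 and memory lists lie mostly left of the blue line, and the stromal and macrophage marker lists right of it.

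The type 17 profile gathered the genes known from IL-17 producing gamma-delta T cells. Of the 9 genes of the gamma-delta and type 17 list at level, 8 were at least 2-fold lower in HFD, none was higher, and the list median was -1.45. Cd163l1, a scavenger receptor of gamma-delta T cells (chr7:140218267-140231145, plus strand), was at 186 CPM in NCD and 56.4 in HFD, 3.30 times higher in NCD (1.77 to 6.71), in 27 and 5 members. Blk, a Src family kinase used by these cells (chr14:63372836-63417037, minus strand), was at 94.6 and 18.8 CPM, and its 4 HFD UMIs came from 1 barcode. Actn2, an actin-binding protein, was at 181 and 61.1 CPM, in 34 and 7 members.

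Tmem176a and Tmem176b, paired membrane proteins linked to the type 17 programme, were the most abundant genes of this list. Tmem176b was at 952 CPM in NCD and 372 in HFD, and Tmem176a at 734 and 268 CPM. These genes overlap at their ends on opposite strands, and the strand setting of the counting is not given in the sources used here. Stromal barcodes also had Tmem176b, in 12.3% of NCD and 41.8% of HFD cases, against 56.0% and 35.3% of members. What part of the HFD level came from other cells was not tested, and all 6 HFD members with only the type 17 profile had the gene. Rora, a nuclear receptor of type 17 and type 2 cells, was at 192 and 37.6 CPM, and Serpinb1a, a protease inhibitor, at 189 and 84.7 CPM. Il17a gave 5 UMIs in each library, out of 348865 pooled UMIs in NCD and 212606 in HFD, so its level was not lower in HFD.

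RefSeq promoter windows (GRCm38.p6, 250 bases before to 50 after a gene's start) were at hand for 8 of the 9 profile genes. The letters AGGTCA, a core that nuclear receptors bind, were searched on both strands, with no other motif. They occurred in the windows of 4 of these genes, Il17a, Actn2, Il23r and 5830411N06Rik. Of all 32851 windows, 16.3% had them. That is a share of windows and not of genes, and 5830411N06Rik had 3 windows, so these values cannot be compared directly. The 250 bases before the start are shown for the cytokine gene that names the profile and for the best measured gene with a match, written 5′ to 3′ on the gene's strand with the matched letters or their reverse complement in capitals. The windows lie at chr1:20730655-20730904 (plus strand) for Il17a and chr13:12340733-12340982 (minus strand) for Actn2. A match describes the letters only and is not a binding site.
Il17a: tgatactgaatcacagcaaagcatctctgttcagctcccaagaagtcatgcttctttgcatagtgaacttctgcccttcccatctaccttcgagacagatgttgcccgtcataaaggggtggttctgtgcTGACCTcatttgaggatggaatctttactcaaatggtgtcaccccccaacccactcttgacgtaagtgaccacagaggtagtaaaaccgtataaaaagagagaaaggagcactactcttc
Actn2: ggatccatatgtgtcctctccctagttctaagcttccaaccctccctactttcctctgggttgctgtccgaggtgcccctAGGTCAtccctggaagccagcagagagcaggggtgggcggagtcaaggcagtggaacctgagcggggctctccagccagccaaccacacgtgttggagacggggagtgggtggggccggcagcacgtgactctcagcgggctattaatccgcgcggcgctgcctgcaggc

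Genes outside the definitions also differed in level between the profiles in NCD. Among members with this profile and none of the other 3, Tmem176a and Tmem176b were found in 38 of 38, Cxcr6 and Ramp1 in 36, and Ltb4r1 in 28. Thy1 was at 1075 CPM in these 38 members, at 282 CPM in the 24 with only the type 2 profile and at 567 CPM in the 26 with only the cytotoxic profile. Cd28 was low in the type 17 group, at 18.4 CPM against 244 and 225 CPM. In the 6 HFD members with only the type 17 profile, Cxcr6 was at 1461 CPM, Ramp1 at 1031 CPM and Tmem176b at 2578 CPM. The 38 NCD members had 1212, 1157 and 2406 CPM of these genes.

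**Figure D4:**
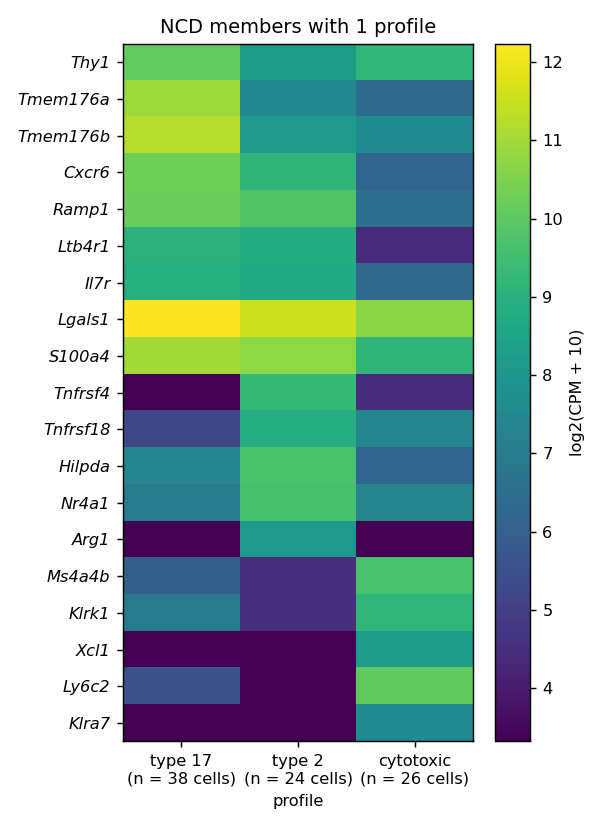
Colours give log2(CPM + 10) of genes outside the profile definitions in NCD members with only the type 17, only the type 2 or only the cytotoxic profile (38, 24 and 26 cells, pooled counts). Tmem176a and Tmem176b stand out in the type 17 column, Tnfrsf4, Hilpda, Nr4a1 and Arg1 in the type 2 column, and Ms4a4b, Ly6c2 and Klra7 in the cytotoxic column.

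Type 2 genes were mostly lower in HFD. Of the 7 list genes at level, 5 were at least 2-fold lower in HFD, 1 was higher, and the median was -1.78. A gene could reach this level through 1 library alone, and at a level of 20 CPM the list median was -0.85. Gata3, the transcription factor of type 2 and some regulatory T cells (chr2:9857078-9890034, minus strand), was at 163 CPM in NCD (57 UMIs in 33 members) and 9.41 CPM in HFD (2 UMIs in 2 members). Il1rl1, the IL-33 receptor (chr1:40429570-40465415, plus strand), was at 112 CPM (39 UMIs in 20 members) and 9.41 CPM (2 UMIs in 2 members). These were 17.4 times (4.59 to 147) and 11.9 times (3.08 to 102) higher in NCD. Areg, the repair factor amphiregulin, was at 272 and 113 CPM, and 15 of its 24 HFD UMIs came from 1 barcode. Lmo4, a transcriptional co-factor, was at 404 and 118 CPM, and its log2 ratio was the list median. In NCD, Lmo4 was at 680 CPM in members with only the type 17 profile and 436 CPM in those with only the type 2 profile. Rora, also in this list, was at 211 and 359 CPM in these groups, so the list is not particular to type 2 members. Cd81, a tetraspanin, was the list gene higher in HFD, at 138 and 320 CPM, which were 12.9% and 37.3% of its library levels. Il5 (2 UMIs), Il13 (1 UMI) and Il4 (1 UMI) were close to absent in NCD and had 0 UMIs in HFD.

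In NCD members with only the type 2 profile, Hilpda, a lipid droplet protein, was at 833 CPM, Nr4a1, an early response gene, at 782 CPM, and Tnfrsf4 at 616 CPM. Arg1, which encodes arginase 1, was found in 8 of these 24 members and in no other NCD member, and 2 HFD members had it. The type 2 genes also mark innate lymphoid cells, which lack CD3. Of 57 NCD barcodes that met all other terms of the rule and had both Il1rl1 and Gata3, 40 had 0 CD3 UMIs, 3 had 1 and 14 had at least 2, with a median of 4.5 and a maximum of 11. In HFD 4 barcodes had both genes, all with 0 CD3 UMIs. Of the 48 NCD barcodes with the type 17 profile, 40 had at least 2 CD3 UMIs. These counts describe where the rule divides such barcodes. Of 18 innate type 2 markers, 17 were seen in NCD members, at 1989 CPM in sum, and 12 in HFD members, at 550 CPM. Whether CD3 UMIs in these barcodes came from the cell itself or from other cells was not tested. Without the members that had an Il1rl1, Ncr1 or Klra8 UMI, the type 2 profile was in 12.6% of 87 NCD and 4.94% of 81 HFD members, a ratio of 0.391 (0.0907 to 1.32). Areg then turned to a log2 ratio of 1.61. Il1rl1 is itself a gene of the type 2 profile, so this step favours the removal of members with that profile and is no independent check.

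Regulatory T cell genes overlapped with the type 2 list, and most of those past the 2-fold limit were genes of the type 2 profile. Of 10 genes at level, 6 were at least 2-fold lower in HFD, none was higher, and the median was -1.17. Klrg1, an inhibitory receptor of differentiated cells, was at 183 CPM in NCD and 23.5 in HFD, 7.80 times higher in NCD (3.17 to 24.8), and Il2ra, the high-affinity IL-2 receptor chain, at 112 and 32.9 CPM. Gata3, Il1rl1, Areg and Capg, described above, were the other genes past the limit. Foxp3, the factor that defines regulatory T cells, was found in 6 NCD members (5.50%) and 2 HFD members (2.35%). Ikzf2, which encodes Helios, was at 166 and 183 CPM, and Ctla4, an inhibitory receptor, at 103 and 51.7 CPM. Gata3, Il1rl1, Areg and Klrg1 are also genes of the type 2 profile. In NCD, Capg was at 1304 CPM in members with only the type 17 profile and 539 CPM in those with only the type 2 profile. The list is therefore not particular to regulatory T cells.

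Cytotoxic genes were lower in HFD or within 2-fold. Of 11 list genes at level, 5 were at least 2-fold lower in HFD, none was higher, and the median was -0.75. Ccl5, a chemokine of effector lymphocytes, was at 3256 CPM in NCD and 2404 in HFD, and Nkg7, a granule protein (chr7:43437073-43438249, plus strand), at 648 and 452 CPM. The genes past the limit were Gzmb (83.1 and 23.5 CPM), Ccl4 (118 and 32.9), Xcl1 (80.3 and 23.5), Cst7 (103 and 37.6) and Ctsw (97.5 and 32.9). Gzmk was the exception, with 2 UMIs in NCD and 14 in HFD, below the level for a comparison. Ccl5 was found in 25 NCD members (22.9%) and 32 HFD members (37.6%), and in 3.06% and 14.0% of stromal barcodes.

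Genes that natural killer cells share with other cells appeared in part of the cytotoxic members. In the 26 NCD members with only this profile, Ly6c2 was at 1059 CPM, Klrk1 at 567 CPM, Xcl1 at 289 CPM and Klra7 at 193 CPM. Klra7 and Ly6c2 belong to families of near-identical genes, so their counts are uncertain. Ly6c2 was also 1.90 (NCD) and 2.40 times (HFD) higher in T cells with a Cd8 UMI than in members. Xcl1 is in the cytotoxic list too, so these levels do not name the cells. Of 15 natural killer markers, 14 were seen in NCD members and 11 in HFD members, at 1539 and 1533 CPM in sum. Ncr1, the most specific of them, was found in 2 members of each library. Of 36 NCD barcodes with at least 2 UMIs of Ncr1, Klra4, Klra7 and Klra8, 26 had 0 CD3 UMIs and 8 had at least 2, and of 22 in HFD these were 18 and 4. The part of natural killer cells in the profile was not tested further.

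The rule for named genes, ranked by the interval end nearest to 1, picked 10 genes in each direction between the libraries. Those lower in HFD were Ltb4r1, Klrg1, Cxcr6, Ramp1, Rora, S100a4, Lmo4, Hilpda, Plac8 and Fam46a. Ramp1, a co-receptor for calcitonin gene-related peptide (chr1:91179822-91225196, plus strand), was at 642 CPM in NCD (69 members) and 169 CPM in HFD (17 members), 3.79 times higher in NCD (2.66 to 5.55). Stromal barcodes also had it, in 31.4% of NCD and 5.17% of HFD cases. Hilpda was at 307 and 84.7 CPM, in 36 and 13 members, and Fam46a, a poly(A) polymerase, at 181 and 42.3 CPM. Plac8 was at 198 and 47.0 CPM, but 26 of its 69 NCD UMIs came from 1 barcode, and with the rule applied to thinned cells its log2 ratio turned to 1.28.

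The 10 genes higher in HFD were Cma1, Tpsb2, Timp1, Pam, Mgp, Mfap5, Lgmn, Nfia, Ctsl and Lpl. Timp1, a protease inhibitor, had 1 UMI in NCD and 63 in HFD, and Mgp, a matrix protein of stromal cells, was at 45.9 and 724 CPM. Mfap5, a microfibril protein, was at 68.8 and 654 CPM, and Lpl, lipoprotein lipase, at 63.1 and 442 CPM. The last 8 of the 10 were in HFD members at between 27.6% (Lpl) and 75.3% (Timp1) of their level in the whole HFD library. For comparison, the stromal markers were at a median of 33.3% and the macrophage markers at 24.9% in sum. Cma1 and Tpsb2, proteases of mast cells, had 0 UMIs in NCD members and 95 and 65 in HFD. Against a floor of 3 counts in the NCD sum they were 52.0 and 35.6 times higher. The lower interval ends were 41.4 and 28.1. A single HFD barcode held 72 and 50 of these UMIs. With the library profile subtracted in proportion to the stromal markers, Mgp, Lgmn and Ctsl fell to the floor of 3 counts in both libraries. Lpl fell to it in HFD. Timp1, Mfap5, Pam and Nfia kept 248, 230, 46.0 and 38.1 CPM in HFD, with NCD at the floor. Cma1 and Tpsb2 kept 573 and 388 CPM in HFD. The part of stromal and mast cell transcripts in these values was not tested.

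Against the T cells with a Cd8 UMI of the same library, the members had more transcripts of Tnfrsf4, Areg, Tmem176a and Tmem176b, and fewer of Nkg7 and Ccl4. Of 2364 genes at level, 37 (1.57%) were at least 2-fold higher in members in both libraries and 13 (0.55%) at least 2-fold lower in both. These calls compare 109 with 24 cells in NCD and 85 with 62 in HFD, and the Cd8 T cells had median depths of 3540.5 and 2564.5 UMIs. Their stromal markers were at a median of 11.2% of the library level in NCD and 16.6% in HFD, against 10.5% and 33.3% in the members. Tnfrsf4 was at 201 CPM in NCD members and 26.8 CPM in Cd8 T cells, 7.48 times higher (2.46 to 37.1), and at 216 and 9.89 CPM in HFD, 21.9 times higher (5.72 to 186). Tmem176a was 8.20 times higher in NCD members (4.39 to 17.3) and 6.03 times in HFD members (2.96 to 13.8). Areg was 3.04 (1.58 to 6.55) and 11.4 times (2.84 to 99.7) higher, Ramp1 3.26 and 5.71 times, and Lmo4 3.48 and 5.95 times. In HFD, Areg had 2 UMIs in the Cd8 T cells, and most of its 24 member UMIs came from 1 barcode. Tmem176b (5.599 and 2.78 times), Ccl9, a chemokine (3.59 and 2.81 times), and Rgs2, a regulator of receptor signalling (2.06 and 3.07 times), completed the 8 genes that the rule for named genes gave. Of the 8 genes of the gamma-delta and type 17 list at level, 6 were higher in both libraries, with median log2 ratios of 2.77 in NCD and 1.70 in HFD.

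Of 15 cytotoxic list genes at level, 3 were at least 2-fold lower in members in both libraries and none was higher in both. Nkg7 was at 648 CPM in NCD members and 1342 CPM in Cd8 T cells, and at 452 and 1878 CPM in HFD, which made it 2.07 (1.67 to 2.56) and 4.16 times (3.32 to 5.26) higher in Cd8 T cells. Ccl5 was 1.43 and 3.52 times higher in Cd8 T cells, Ccl4 2.28 and 7.96 times, and Ctsw, the lymphocyte cathepsin W, 2.11 and 5.85 times. Ms4a4b, a membrane protein of T cells, was 2.21 and 2.16 times higher in them, Ly6c2 1.90 and 2.40 times, Plac8 1.85 and 2.84 times, and Hmgb2, a chromatin protein of dividing cells, 2.33 and 1.53 times. The type 17 profile was found in 0 of 24 NCD Cd8 T cells, which allows a share of up to 12.5%, and in 0 of 62 in HFD, which allows up to 4.84%. The cytotoxic profile was found in 20 of 24 and 54 of 62.

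The naive genes did not separate the populations in the same way in the libraries. Lef1 was at 37.3 CPM in NCD members and 143 CPM in NCD Cd8 T cells, and at 202 and 98.9 CPM in HFD. Dapl1 was at 22.9 and 161 CPM in NCD and at 202 and 203 CPM in HFD. The naive profile was found in 7 of 24 NCD Cd8 T cells (29.2%) and 16 of 62 in HFD (25.8%). Lef1 was thus lower in members than in Cd8 T cells in NCD and higher in HFD, and Dapl1 was lower in NCD and nearly equal in HFD. The difference between the libraries was not tested.

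**Figure D5:**
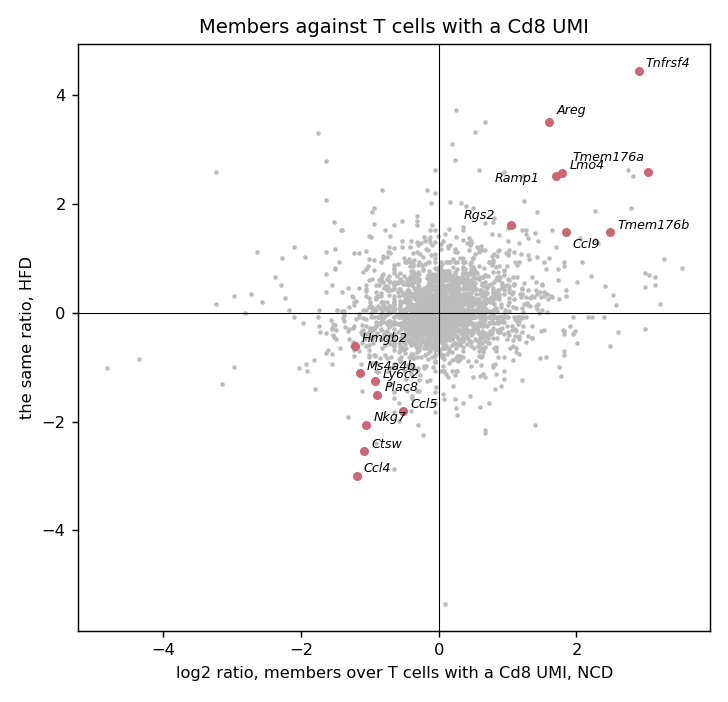
Each grey point is a gene at a mean of at least 50 CPM, placed by the log2 ratio of members over T cells with a Cd8 UMI in NCD (horizontal axis) and in HFD (vertical axis). The named genes are red: Tnfrsf4, Areg and Tmem176a lie at the upper right, and Nkg7, Ctsw and Ccl4 at the lower left.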

How the data were processed

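The deposited UMI counts per gene and barcode were used as the authors deposited them, for 1 NCD and 1 HFD library. Cell Ranger, Seurat and the build mm10 are named in the submitters' processing notes, and their versions are not given in the sources used here. The members and gene lists were chosen with earlier results of these data known, and the transcript profiles after seeing the values. The membership rule was applied to 27998 genes per barcode. Counts were summed over members per library and given as CPM of the sum. Ratios have exact conditional binomial 95% intervals and shares Clopper-Pearson intervals. The share that 0 cells allow was taken as 3 divided by the number of cells. This lies below the upper Clopper-Pearson end, which is 3.33% for 0 of 109. A gene was compared at a mean of at least 50 CPM over both libraries and called at 2-fold. A gene could thus be compared through a high level in 1 library alone, which bears on the counts of list genes. A count of 0 was set to 3 counts. Named genes had a mean of at least 100 CPM and were ranked by the interval end nearest to 1, up to 10 in each direction between diets and 8 against Cd8 T cells, leaving out sex-linked, predicted, receptor variable, haemoglobin, ribosomal protein and mitochondrial genes and those of the membership rule. Any gene of a described list could also be named. Some genes of the lists are not reported here. Doublets were called with Scrublet in scanpy 1.11.5 and kept in the main analysis: 183 NCD barcodes, and in HFD, where its own threshold called 0, the top 5% (339). They included 3 members of each library. Python 3.11.15, numpy 2.4.6, scipy 1.17.1, pandas 2.3.3 and matplotlib 3.10.9 were used, and the scripts were tested on simulated data. Gene positions are from GENCODE on GRCm38 and promoter windows from RefSeq. Alternatives changed the membership limits, doublets, free RNA, scaling, level and fold, and members with 20 or more class II or 2 or more mast cell UMIs were left out in one chosen after seeing the data.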

Additional observations from a re-analysis of the deposited data

How the results depend on the processing

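No paired analysis was possible because each diet had 1 library. With 1 CD3 UMI as the minimum, the naive list median turned to -0.085, the member share ratio was 1.68, 283 genes were higher in HFD, and 22 were lower in members than in Cd8 T cells in both libraries. The last count was 31 with the rule applied to thinned cells and 36 in CPM without mitochondrial and ribosomal protein genes. That scaling gave 274 genes higher and 284 lower in HFD. A level of 100 CPM gave 69 and 54, a level of 20 CPM 462 and 597, and a limit of 3-fold 78 and 43. At 20 CPM the type 2 list median was -0.85 and the type 17 list median -1.40. Subtracting free RNA gave 246 genes lower in HFD and a memory list median of -0.995. Genes higher in members than in Cd8 T cells in both libraries numbered 59 without the stromal limit and 57 without members that had an Il1rl1, Ncr1 or Klra8 UMI. Without the C1q, Lyz1 and Retnla limits the type 17 list median was -0.98. Across the 10 alternatives for the profiles, the HFD over NCD share ratio ran from 0.129 to 0.326 for type 17, 0.0673 to 0.391 for type 2, 2.90 to 14.5 for naive and 1.10 to 1.505 for cytotoxic. The cause of these shifts was not tested. The depth of 1414 to 13898 UMIs per member limits every statement on a gene not seen in a cell.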

Other observations

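Genes of dividing cells were higher in the HFD members. Of the 11 cell cycle genes at level, 7 were at least 2-fold higher in HFD and none was lower, with a median log2 ratio of 1.55. Top2a, which untangles replicated DNA, was at 17.2 CPM in NCD and 113 in HFD, 6.56 times higher (2.61 to 19.6), but its 24 HFD UMIs came from 6 members, and 12 of them from 1 barcode. Tubb5, a tubulin, was at 398 and 1166 CPM, in 52 and 56 members. At least 2 UMIs of the cycling genes were found in 3 of 109 NCD members (2.75%) and 14 of 85 HFD members (16.5%), against 0.248% and 1.63% of stromal barcodes. Of these 14 HFD members, 8 also had at least 20 MHC class II UMIs, and their median depth was 3429.5 UMIs. The part of other cells' transcripts in this was not tested.

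Cxcr4, a chemokine receptor, was at 63.1 CPM in NCD and 268 in HFD members, 4.25 times higher (2.56 to 7.30), in 16 and 35 members, while 0.414% of NCD and 16.02% of HFD stromal barcodes also had it. Id3, an inhibitor of DNA binding, was at 37.3 and 198 CPM, but its shares of 6.42% and 29.4% of members lay below those of stromal barcodes, 75.1% and 67.3%. Of 11 MHC class I genes at level, 0 were 2-fold apart, and their median log2 ratio was -0.55. Interferon induced genes had a median of -0.06, with 1 of 10 at level higher in HFD. Immediate early and heat shock genes had a median of -0.10, with 1 of 27 higher. At least 20 MHC class II UMIs were found in 9 NCD and 25 HFD members (8.26% and 29.4%), and at least 2 mast cell UMIs in 9 HFD members (10.6%) and 0 of 109 in NCD, which allows up to 2.75%. In HFD stromal barcodes these shares were 13.2% and 9.34%.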
